A study of Mus musculus with 19 samples.

Results

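Transcripts of 10 Fanconi anemia genes were counted in RNA-seq libraries of E13.5 mouse cortex: *Fanca*, *Fancb*, *Fancc*, *Fance*, *Fancf*, *Fancg*, *Fancl* and *Fancm* of the Fanconi core complex, and *Fancd2* and *Fanci*, which form the ID complex. These 10 genes were chosen by name from the 51912 genes counted in each library, and all 10 were found. RNA came from the dissected cortex of single embryos on a mixed C57BL/6 and 129 background, with 1 Click-seq library per embryo and 19 libraries in all. The 7 ctrl embryos were labelled as controls without a stated genotype, 5 cKO-E embryos carried the *Emx1*-Cre *Ino80* conditional mutation (*Emx1* Cre/+; *Ino80* fl/fl), and 7 dKO-E embryos carried the *Emx1*-Cre *Ino80*/*Trp53* conditional double mutation (those alleles together with *Trp53* fl/fl). *Ino80* encodes the ATPase of a chromatin remodeling complex and *Trp53* encodes p53, which halts or kills cells with damaged DNA. *Emx1*-Cre recombines in cortical progenitors of the *Emx1* lineage, whereas the interneurons, microglia and vessels of dissected cortex come from other lineages.

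The Fanconi pathway repairs DNA crosslinks that join both strands and block replication forks. The core complex gathers on the stalled fork, where its ligase subunit FANCL attaches ubiquitin to FANCD2 and FANCI, and the modified pair directs nucleases, translesion polymerases and homologous recombination to the lesion. Inherited loss of the pathway causes Fanconi anemia, with bone marrow failure and, in many patients, a small head. Cycling cells depend on the pathway most, and progenitors of the embryonic cortex cycle rapidly. The comparisons below address whether transcripts of the pathway changed when *Ino80* was deleted, and whether they differed when *Trp53* was deleted with it.

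Libraries held 820915 to 8095810 deduplicated counts on genes (median 2952788), and 3 counts corresponded to 0.369 to 3.71 CPM, the count of a gene per 1000000 counts of its library after TMM scaling. The shallowest library was cKO-E D with 820915 counts, followed by dKO-E G with 885159. *Ino80* counts over the whole gene were higher in both mutants (121 CPM in ctrl, 166 in cKO-E and 186 in dKO-E on average), so gene sums did not show the deletion of the floxed exons. *Trp53* averaged 43.7, 39.2 and 34.6 CPM in the same order, and the dKO-E value was lower than ctrl (log2 fold change -0.36, adjusted p = 0.0196, edgeR quasi-likelihood test). No litter held both cKO-E and dKO-E embryos, so those genotypes cannot be told apart from their litters, whereas cKO-E shared 3 litters with ctrl and dKO-E shared 1.

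All 10 genes were transcribed in ctrl cortex, and they spanned a 7.21-fold range of CPM per kilobase of exon, the scale on which genes of different length were compared. Exon length merged all annotated transcripts of a gene, from 1 for *Fancf* to 19 for *Fancc*, so levels on this scale also depend on the annotation. *Fancl* stood highest at 12.4 ± 1.15 CPM per kilobase (SD, n = 7). *Fanci* followed at 7.12 ± 0.994, and *Fancm*, *Fancd2*, *Fanca*, *Fancc* and *Fancb* then lay between 5.77 and 4.21. *Fance*, *Fancg* and *Fancf* formed the low end at 2.49, 2.08 and 1.72. Neighbours in this order overlapped within 1 SD, except that *Fancl* was separated from *Fanci* and *Fancb* from *Fance*. *Fancl* was also the highest member in cKO-E (11.7 ± 1.58, n = 5) and in dKO-E (17.2 ± 3.54, n = 7), and *Fancf* was the lowest in all 3 genotypes.

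**Figure D1:**
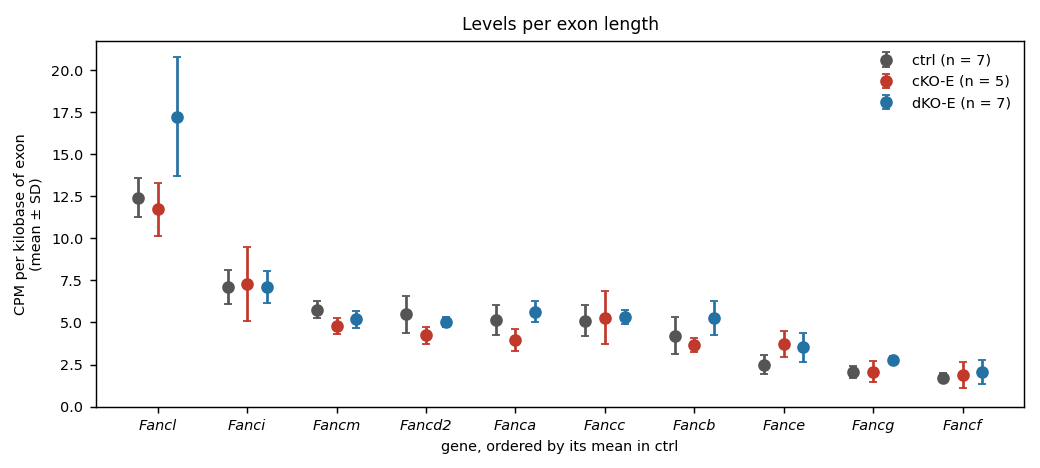
Level of each Fanconi anemia gene in CPM per kilobase of exon, as mean ± SD over 7 ctrl, 5 cKO-E and 7 dKO-E embryos, with genes ordered by their ctrl mean. *Fancl* stood above all other members in each genotype and was highest in dKO-E.

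Differences between genotypes were small, within 0.5 on the log2 scale for every member tested. Against ctrl, none of the 9 members tested in cKO-E passed a false discovery rate (FDR) of 0.001 in edgeR's quasi-likelihood test, at which 3.38% of all genes tested were called. An unadjusted p under 0.05 was seen for 4 of them, 1 higher and 3 lower. Beside these stood 1672 higher and 1804 lower of all 11660 genes tested. Neither the likelihood ratio test nor DESeq2 called any member at an FDR of 0.001. At an FDR of 0.05, only *Fancm* was lower, where 9.88% of all genes were lower, and no member was among the 7.31% that were higher. The median log2 fold change over these 9 members was -0.03, beside 0.02 over all 11660 genes tested.

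In dKO-E against ctrl, none of 9 members passed an FDR of 0.001, where 2.58% of genes passed. *Fancl* did pass it in both the likelihood ratio test and DESeq2. For 3 members, all higher, the unadjusted p was under 0.05, beside 1496 higher and 1876 lower of all 11381 genes tested. At an FDR of 0.05, *Fancl* was higher, where 5.45% of all genes were higher, and no member was among the 10% of genes that were lower. The median log2 fold change was 0.15 over the members and 0.01 over all 11381 genes. The single call among 9 members in each mutant lay near the share of all genes, and is a result about *Fancm* or *Fancl* and not about the group.

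The mutants also differed from each other. In dKO-E against cKO-E, *Fancl* and *Fanca* were higher at an FDR of 0.05, 2 of 10 members where 5.59% of 11746 genes tested were higher. No member was among the 9.42% of genes that were lower. Log2 fold changes were positive for 8 members, with a median of 0.19 over the members and 0.02 over all genes. Every dKO-E library lay above every cKO-E library for *Fancl* and *Fancg*, a separation seen in 2.52% of all genes tested. The comparisons with ctrl share the ctrl libraries, and each mutant appears in 2 comparisons, so the values below are given side by side for each gene.

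**Figure D2:**
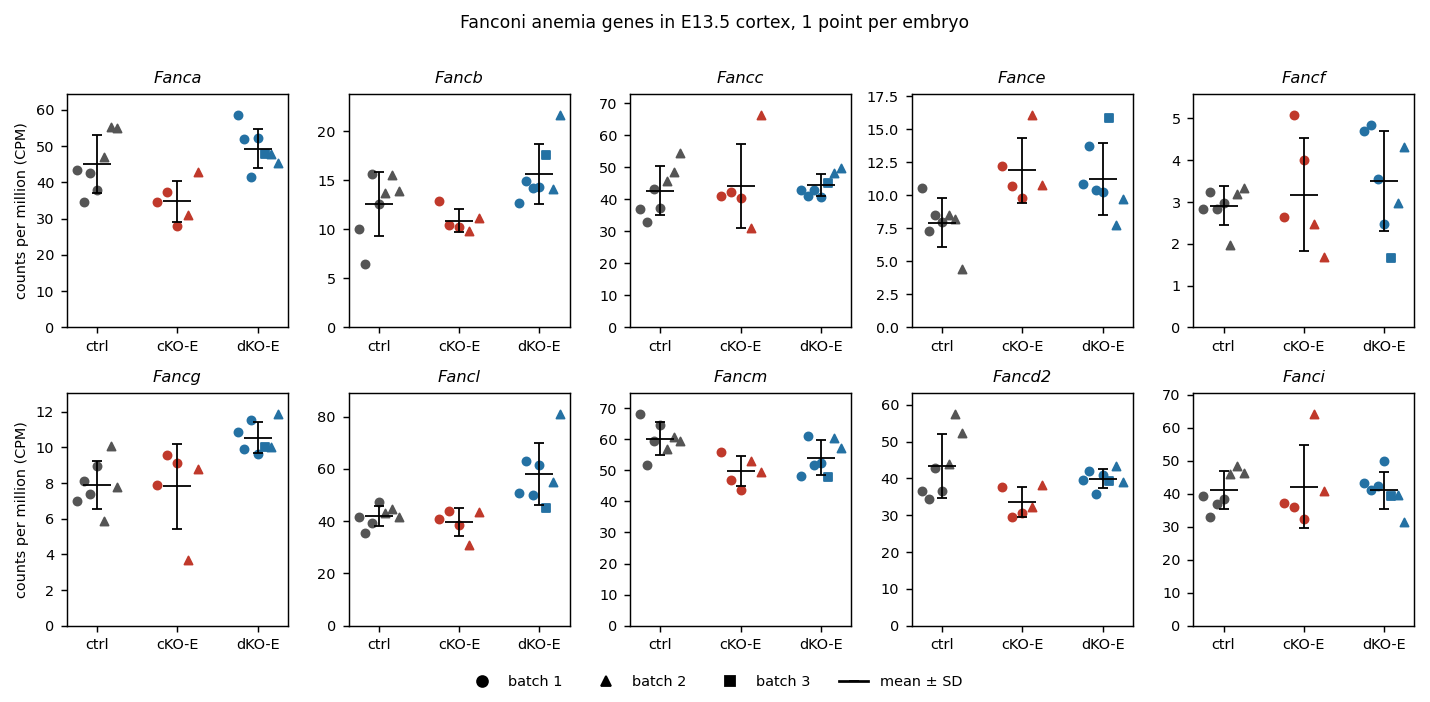
CPM of each Fanconi anemia gene in every embryo, with 1 point per library, point shape for batch and black bars for mean ± SD in ctrl (n = 7), cKO-E (n = 5) and dKO-E (n = 7). All 7 dKO-E points for *Fancl* and *Fancg* lie above all 5 cKO-E points, whereas the genotypes overlap for *Fancc*, *Fancf* and *Fanci*.

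The catalytic module of the core complex holds *Fancl*, the ubiquitin ligase, and *Fancb*, an X-linked scaffold that binds it. *Fancl* (chr11:26386135-26471876, plus strand of GRCm38) had 30.9, 38.6, 40.9, 43.5 and 44.0 CPM in the 5 cKO-E embryos. Ctrl embryos ranged from 35.5 to 47.4 CPM (median 41.7) and dKO-E embryos from 45.2 to 81.1 (median 55.0). The ctrl range held 4 of 5 cKO-E values, with the other below it, whereas 6 of 7 dKO-E values exceeded every ctrl value. The log2 fold change was 0.49 ± 0.12 (SE) for dKO-E against cKO-E (adjusted p = 0.00711) and 0.45 ± 0.10 for dKO-E against ctrl (adjusted p = 0.00509), but -0.03 ± 0.09 for cKO-E against ctrl (adjusted p = 0.971, 95% interval -0.23 to 0.17).

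*Fancl* was also above ctrl within the 1 litter shared with ctrl and within batches 1 and 2, though not past the threshold in each. In litter 1, which held 2 ctrl and 3 dKO-E embryos, ctrl had 35.5 and 41.6 CPM and dKO-E 50.1 to 62.9, and litter 2 held the other 4 dKO-E embryos at 45.2 to 81.1. Fitted alone, litter 1 gave a log2 fold change of 0.50 (adjusted p = 0.166), and with litter as a covariate over all ctrl and dKO-E libraries the value was 0.50 (adjusted p = 0.0836), so the call was lost in both. The highest value, 81.1 CPM from 75 counts, came from the shallow library dKO-E G, and without this library dKO-E against ctrl gave 0.40 (adjusted p = 0.00596). Within batch 1 the difference from ctrl was 0.46 (adjusted p = 0.0181), and within batch 2, with 3 ctrl and 2 dKO-E libraries, 0.56 (adjusted p = 0.0945).

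*Fancb* (chrX:164980592-164997272, plus strand) averaged 12.6 ± 3.28 CPM in ctrl (SD, n = 7), 10.9 ± 1.19 in cKO-E (n = 5) and 15.7 ± 3.02 in dKO-E (n = 7). Of the dKO-E embryos, 6 of 7 lay above every cKO-E embryo, and the log2 fold change between the mutants was 0.43 ± 0.15 (adjusted p = 0.0516), just outside the FDR of 0.05. It was called with the likelihood ratio test (adjusted p = 0.037) and with total counts as the only scaling (adjusted p = 0.0334). Against ctrl the values were -0.13 (adjusted p = 0.725) for cKO-E and 0.30 (adjusted p = 0.269) for dKO-E, neither past the threshold. The dKO-E value passed in 1 of 29 alternative analyses, with litter as a covariate (0.79, adjusted p = 0.0467). Only litter 1, with 2 ctrl and 3 dKO-E embryos, held both genotypes. It included ctrl replicate B, the lowest ctrl value at 6.48 CPM. Without that library and without covariates, the dKO-E value was 0.15 (adjusted p = 0.551).

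*Fanca* and *Fancg* encode partners in a second module of the core complex. *Fanca* (chr8:123268300-123318576, minus strand) had 28.1, 30.9, 34.62, 37.2 and 42.8 CPM in cKO-E. The ctrl range was 34.65 to 55.3 (median 43.4) and the dKO-E range 41.5 to 58.4 (median 47.9). Of the dKO-E values, 6 of 7 lay above every cKO-E value, and 3 of 5 cKO-E values lay below the lowest ctrl value. The log2 fold change was 0.48 ± 0.11 for dKO-E against cKO-E (adjusted p = 0.00625), -0.32 ± 0.13 for cKO-E against ctrl (adjusted p = 0.109) and 0.15 ± 0.11 for dKO-E against ctrl (adjusted p = 0.387). The cKO-E value passed an FDR of 0.05 with batch (-0.30, adjusted p = 0.044) or sex (-0.38, adjusted p = 0.0445) as a covariate, as well as without ctrl replicate B or cKO-E replicate E. The difference between the mutants passed an FDR of 0.05 in 24 of 25 alternative analyses and was lost within batch 2, where it was 0.25 (adjusted p = 0.718, 2 embryos of each genotype).

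The 250 bases before the *Fanca* start are shown because *Fanca* was 1 of the 2 members called between the mutants. It is given 5′ to 3′ on the gene's strand from RefSeq (GRCm38.p6, chr8:123318577-123318826, minus strand), with the letters CCAAT, read on either strand, in capitals.
Fanca: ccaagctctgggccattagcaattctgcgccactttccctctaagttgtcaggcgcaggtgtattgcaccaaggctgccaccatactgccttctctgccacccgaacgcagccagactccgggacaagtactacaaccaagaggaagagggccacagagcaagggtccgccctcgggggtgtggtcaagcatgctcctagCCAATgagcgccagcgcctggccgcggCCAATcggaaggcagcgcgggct
The 2 CCAAT matches begin 50 and 23 bases before the start. A match is a description of the letters and not of a bound factor.

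*Fancg* (chr4:43002343-43010506, minus strand) was low, with 3 to 94 counts per library. It had 3.71, 7.91, 8.77, 9.12 and 9.58 CPM in cKO-E, where the lowest value rested on 3 counts in library D. Ctrl ranged from 5.89 to 10.1 CPM (median 7.78) and dKO-E from 9.63 to 11.9 (median 10.04). The ranges of dKO-E and cKO-E did not meet but lay only 0.05 CPM apart, and the fit gave 0.31 ± 0.17 (adjusted p = 0.232). Against ctrl, dKO-E was at 0.40 ± 0.14 (adjusted p = 0.0534) and cKO-E at 0.09 ± 0.18 (adjusted p = 0.812). The dKO-E value passed an FDR of 0.05 in the likelihood ratio test (adjusted p = 0.0379), with total counts alone (adjusted p = 0.0166) and without ctrl replicate H (adjusted p = 0.0289).

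*Fancc*, *Fance* and *Fancf* form the module that hands FANCD2 to the ligase. *Fance* (chr17:28313519-28326572, plus strand), whose product binds FANCD2, had 9.85, 10.7, 10.8, 12.2 and 16.1 CPM in cKO-E against 4.45 to 10.6 in ctrl (median 8.23) and 7.80 to 15.9 in dKO-E (median 10.4). Of these, 4 of 5 cKO-E values and 3 of 7 dKO-E values exceeded every ctrl value. Against ctrl, cKO-E stood at 0.49 ± 0.18 on the log2 scale (adjusted p = 0.0711), the largest value of any member, and dKO-E at 0.45 ± 0.17 (adjusted p = 0.0883), and neither passed an FDR of 0.05. The cKO-E value passed in the likelihood ratio test (adjusted p = 0.049) and without ctrl replicate A (adjusted p = 0.0399), and the dKO-E value with total counts alone (adjusted p = 0.032) or sex as a covariate (adjusted p = 0.0359). Between the mutants the value was -0.03 (95% interval -0.40 to 0.33). Counts were 8 to 85 per library.

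*Fance* is shown beside *Fanca* because it had the largest log2 fold change of any member between cKO-E and ctrl, though not past the threshold. The 239 bases before its first annotated exon (GRCm38.p6, chr17:28313280-28313518, plus strand, RefSeq) hold CCAAT once, as ATTGG on the opposite strand, in capitals.
Fance: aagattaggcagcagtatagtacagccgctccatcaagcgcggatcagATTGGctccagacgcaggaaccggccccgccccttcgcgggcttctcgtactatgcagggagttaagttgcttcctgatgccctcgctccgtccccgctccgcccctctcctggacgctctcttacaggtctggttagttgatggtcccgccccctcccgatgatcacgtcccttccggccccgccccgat

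*Fancc* (chr13:63285043-63497278, minus strand), a bridging subunit of this module, passed the test in no comparison. Its log2 fold changes were 0.13 (95% interval -0.19 to 0.46) in cKO-E and 0.06 (-0.15 to 0.27) in dKO-E against ctrl, and -0.06 (-0.33 to 0.21) between the mutants. The cKO-E embryos ranged most widely, from 30.9 CPM in library D to 66.1 in library E, whereas dKO-E stayed between 40.8 and 49.7. Without library E, the cKO-E value against ctrl was -0.06 and the value between the mutants 0.13, so both signs rested on that library. *Fancf* (chr7:51860577-51862267, minus strand), a gene with 1 exon whose product joins the module to the rest of the complex, had 2 to 29 counts per library (1.96 to 3.33 CPM in ctrl, 1.69 to 5.07 in cKO-E and 1.67 to 4.84 in dKO-E), and was removed by the filter on low counts in both comparisons with ctrl. Its mean log2 CPM differed from ctrl by 0.04 in cKO-E (p = 0.855, two-sided exact permutation test over libraries) and by 0.17 in dKO-E (p = 0.374, same exact test). No difference was detected at these low counts, and the size of difference that could be detected was not tested. Between the mutants, where it was tested, the log2 fold change was 0.10 ± 0.31 (adjusted p = 0.886).

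*Fancm* (chr12:65075603-65132058, plus strand) encodes the DNA translocase that anchors the core complex to chromatin. It had 43.8, 46.8, 49.6, 53.1 and 56.0 CPM in cKO-E. Ctrl ranged from 51.9 to 68.2 (median 59.5) and dKO-E from 47.7 to 60.9 (median 52.4). Of these, 3 of 5 cKO-E values and 3 of 7 dKO-E values lay below every ctrl value, and the ranges of the mutants overlapped. *Fancm* was lower in cKO-E than in ctrl (log2 fold change -0.28 ± 0.09, adjusted p = 0.0345), and the call held in 15 of 26 alternative analyses, over which the value ran from -0.37 to -0.22. In dKO-E the difference from ctrl was -0.16 ± 0.08 (adjusted p = 0.178), and between the mutants it was 0.13 ± 0.09 (adjusted p = 0.389). The call in cKO-E was lost without ctrl replicate A, C or D or without cKO-E replicate B, C or E, each in turn, with an adjusted p of up to 0.106.

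The 30 bases around the single CCAAT match in the *Fancm* window are shown for comparison with *Fanca*, as *Fancm* was the member called in cKO-E (GRCm38.p6, chr12:65075528-65075557, plus strand, RefSeq, match in capitals).
Fancm: ccggaatggcaaCCAATcatcttcccgccg
RefSeq windows of 250 bases before to 50 after the start were found for 9 of 10 members. CCAAT on either strand occurred in 6 of these 9 windows, those of *Fanca*, *Fancb*, *Fancc*, *Fance*, *Fancf* and *Fancm*, and in 37.4% of all 32851 windows. The letters TTTGGCGC, TTTCCCGC, TTTCGCGC or TTTGCCGC, taken for E2F factors, which drive genes of DNA replication, occurred in the *Fancg* window alone, 52 bases before the start, and in 2.26% of all windows. CCATNTTG or GCCATNTT, taken for YY1, a partner of INO80, occurred in 0 of 9 windows and in 8.46% of all windows. Absence says only that these letters were not in these windows. The windows of *Fancl*, called between the mutants, and *Fanci* held none of the letters searched. These windows follow the RefSeq starts, which can lie inside the GENCODE genes: annotated exons of the same gene covered all 250 bases before the start for *Fancl*, 208 for *Fanci* and 205 for *Fancg*, whose E2F match therefore lies within the gene coordinates given above.

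*Fancd2* (chr6:113531682-113597017, plus strand) and *Fanci* (chr7:79391929-79450264, plus strand) encode the 2 proteins that the core complex ubiquitinates. *Fancd2* had 29.6, 30.6, 32.1, 37.6 and 38.1 CPM in cKO-E, 34.4 to 57.6 in ctrl (median 42.9) and 35.8 to 43.4 in dKO-E (median 39.6). In cKO-E, 3 of 5 values lay below the ctrl range, and all dKO-E values lay inside it. The log2 fold change was -0.33 ± 0.13 in cKO-E (adjusted p = 0.104), -0.10 ± 0.11 in dKO-E (adjusted p = 0.578) and 0.24 ± 0.10 between the mutants (adjusted p = 0.108). In cKO-E the value was -0.31 with batch as a covariate (adjusted p = 0.0416) and -0.48 with litter as a covariate (adjusted p = 0.0108), both past an FDR of 0.05.

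*Fanci* passed the test in no comparison, with log2 fold changes of -0.03 in cKO-E (95% interval -0.31 to 0.26), 0.05 in dKO-E (-0.16 to 0.26) and 0.08 between the mutants (-0.19 to 0.35). Its mean in cKO-E, 42.2 ± 12.7 CPM (SD, n = 5), rested on the shallow library D, with 64.2 CPM from 52 counts. The other 4 cKO-E libraries had 32.4, 36.1, 37.2 and 40.8 CPM, inside or just below the ctrl range of 32.8 to 48.5.

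**Figure D3:**
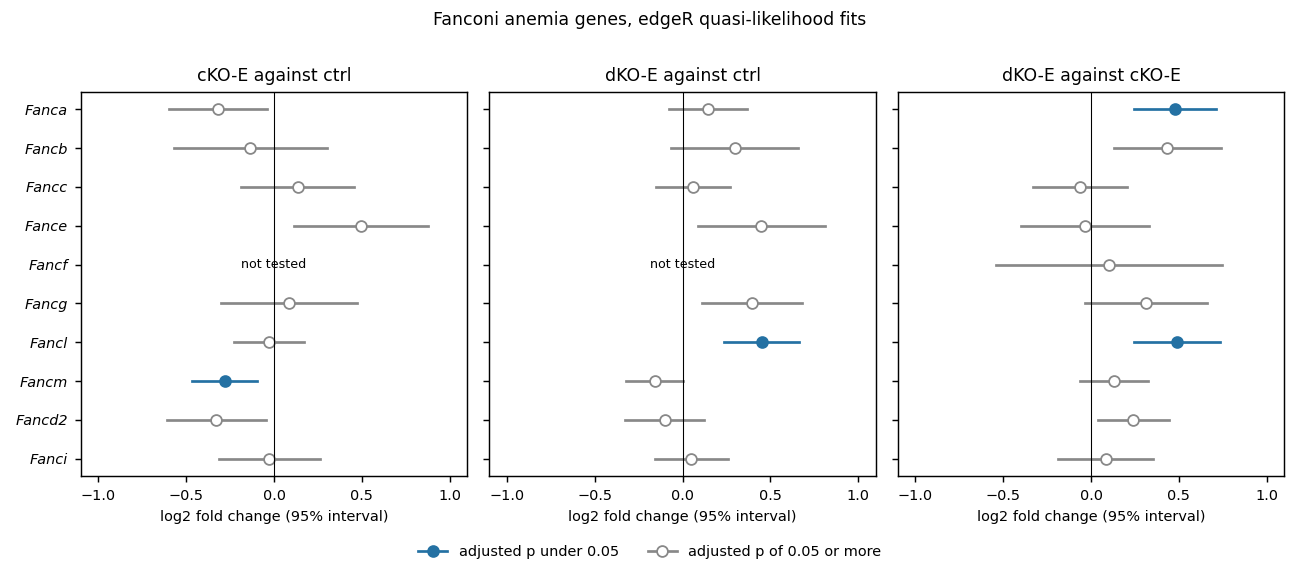
Log2 fold changes with 95% intervals for the Fanconi anemia genes in the 3 comparisons, from edgeR quasi-likelihood fits over all genes, with filled blue points for an adjusted p under 0.05. *Fancm* is marked in cKO-E against ctrl, *Fancl* in dKO-E against ctrl, and *Fanca* and *Fancl* in dKO-E against cKO-E.

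Litters shared by cKO-E and ctrl allowed littermates to be set side by side. In each of the 3 litters, the cKO-E embryo lay below every ctrl littermate for *Fanca*, *Fancb*, *Fancm*, *Fancd2* and *Fanci*, 5 of the 9 members tested, whereas 16% of all genes tested did so. The cKO-E embryo lay above every ctrl littermate in all 3 litters for *Fance*, a pattern of 15.7% of all genes. For *Fanca*, the cKO-E embryos had 37.2, 28.1 and 42.8 CPM in litters 4, 5 and 7, where their ctrl littermates had 42.6, then 37.8 and 47.1, then 55.0 and 55.3. With litter as a covariate, the cKO-E fit called *Fancm* (-0.37, adjusted p = 0.0445) and *Fancd2*, but not *Fanca* (-0.37, adjusted p = 0.064). These litters hold 1 cKO-E embryo each.

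Batch moved with several members inside ctrl. The labels name batches without saying what they are. Ctrl libraries of batch 1 came from litters 1, 4 and 5, and those of batch 2 from litters 5 and 7. Those of batch 2 were also shallower, with 1539303 to 2187537 counts against 3152460 to 5205035 in batch 1. Batch, litter and depth therefore cannot be told apart in ctrl. All 3 ctrl libraries of batch 2 lay above all 4 of batch 1 for *Fanca*, *Fancc*, *Fancd2* and *Fanci*. How many of all genes separated this way was not counted, so the pattern cannot be read as particular to the members. In ctrl alone, 2511 of 11736 genes had an unadjusted p under 0.05 for batch in edgeR's quasi-likelihood test. In a fit on ctrl alone, batch 2 was higher for *Fancd2* (log2 difference 0.46, adjusted p = 0.0351) and *Fanca* (0.42, adjusted p = 0.0452), 2 members where 7.36% of genes were called in either direction. Over 18 libraries of batches 1 and 2 with genotype in the fit, edgeR's quasi-likelihood test called no member and 0% of 12180 genes, 1869 of which had an unadjusted p under 0.05. In that fit *Fancc* was at 0.34 (adjusted p = 0.124) and *Fancd2* at 0.27 (adjusted p = 0.169). Within batch 1, with 4 ctrl and 3 cKO-E libraries, *Fanca* was at -0.25 (adjusted p = 0.223) in cKO-E against ctrl, and within batch 2, with 3 and 2, at -0.42 (adjusted p = 0.19), beside -0.30 with batch as a covariate (adjusted p = 0.044). For dKO-E against ctrl, *Fanca* was at 0.33 within batch 1 (adjusted p = 0.083) and -0.17 within batch 2 (adjusted p = 0.623), so its sign in that comparison differed between batches. The same was so for *Fanci*, at 0.25 within batch 1 (adjusted p = 0.128) and -0.35 within batch 2 (adjusted p = 0.295), and for *Fancd2*, at 0.06 (adjusted p = 0.757) and -0.30 (adjusted p = 0.374). Between the mutants, *Fanci* stood at 0.32 within batch 1 (adjusted p = 0.108) and -0.39 within batch 2 (adjusted p = 0.556).

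The sexes were spread unevenly, with 4 of 5 cKO-E embryos and 2 of 7 dKO-E embryos female. No member differed by sex at an FDR of 0.05 in a fit with genotype (edgeR quasi-likelihood test), where 0.44% of 12488 genes did, and 2 members had an unadjusted p under 0.05, *Fanca* (0.24 higher in females, adjusted p = 0.237) and *Fance* (0.32, adjusted p = 0.334). X-linked *Fancb* was at 0.14 (adjusted p = 0.775). With sex as a covariate, *Fanca* differed between dKO-E and cKO-E by 0.61 (adjusted p = 0.000341) and between cKO-E and ctrl by -0.38 (adjusted p = 0.0445).

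A further 20 genes of the pathway, all of which passed the filter on low counts, were examined in the same fits. In cKO-E against ctrl, none passed an FDR of 0.001 in the quasi-likelihood test, the likelihood ratio test called 1, *Ercc4*, and DESeq2 called 0. An unadjusted p under 0.05 was seen for 6, with 2 higher and 4 lower. Beside these stood 1672 higher and 1804 lower of all 11660 genes tested. At an FDR of 0.05, *Ercc4* and *Xrcc2* were lower and *Mad2l2* was higher, 2 and 1 of 20 genes beside 9.88% and 7.31% of all genes tested, so these counts lay near the background. *Ercc4* encodes the nuclease XPF, which cuts beside the crosslink. It had 12.8 to 20.1 CPM in cKO-E, 14.1 to 24.2 in dKO-E and 19.5 to 31.6 in ctrl, and was lower in both mutants. Its log2 fold change against ctrl was -0.59 ± 0.13 for cKO-E (adjusted p = 0.00516), -0.51 ± 0.13 for dKO-E (adjusted p = 0.00929), and 0.08 between the mutants (95% interval -0.24 to 0.41).

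*Xrcc2*, a gene of homologous recombination, had 37.2 to 41.8 CPM in cKO-E, below all ctrl values of 44.9 to 68.6, and 38.9 to 66.9 in dKO-E. It was lower in cKO-E than in ctrl (-0.42 ± 0.10, adjusted p = 0.00844) and rose between cKO-E and dKO-E (0.37 ± 0.11, adjusted p = 0.0301), and was at -0.06 in dKO-E against ctrl (adjusted p = 0.747). *Mad2l2*, a subunit of translesion polymerase zeta and of the shieldin complex, had 32.1 to 35.4 CPM in cKO-E, above all ctrl values of 19.0 to 30.0, and was higher there (0.39 ± 0.10, adjusted p = 0.017). The dKO-E embryos had 18.1 to 39.7 CPM, and stood at 0.29 ± 0.15 against ctrl (adjusted p = 0.193).

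In dKO-E against ctrl, *Ercc4* was the 1 pathway gene past an FDR of 0.05, where 10% of all genes were lower. None passed 0.001 in the quasi-likelihood test, the likelihood ratio test or DESeq2. An unadjusted p under 0.05 was seen for 5, with 4 higher and 1 lower. Beside these stood 1496 higher and 1876 lower of all 11381 genes tested. Between the mutants, *Xrcc2*, *Brip1* and *Rfwd3* were higher in dKO-E, 3 of 20 beside 5.59% of all genes. Log2 fold changes were positive for 17 of 20 (median 0.19), beside 6352 of 11746 genes tested (median 0.02). The 3 calls fell to 1 without the shallow libraries cKO-E D and dKO-E G and to 0 without cKO-E replicate C. *Brip1*, a helicase that binds BRCA1, had 61.8 to 78.9 CPM in cKO-E and 79.5 to 96.2 in dKO-E, with no overlap (0.27 ± 0.07, adjusted p = 0.0176). *Rfwd3*, a ubiquitin ligase for proteins on single-stranded DNA, had 37.1 to 48.9 and 49.9 to 60.7 CPM, also with no overlap (0.26 ± 0.08, adjusted p = 0.0394). None of the *Brip1* and *Rfwd3* values against ctrl passed. None of the remaining pathway genes passed between the mutants, with adjusted p values of at least 0.0624. The core-associated genes and the *Ube2t*, *Usp1* and *Wdr48* genes of the ubiquitin cycle passed in none of the 3 comparisons.

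**Figure D4:**
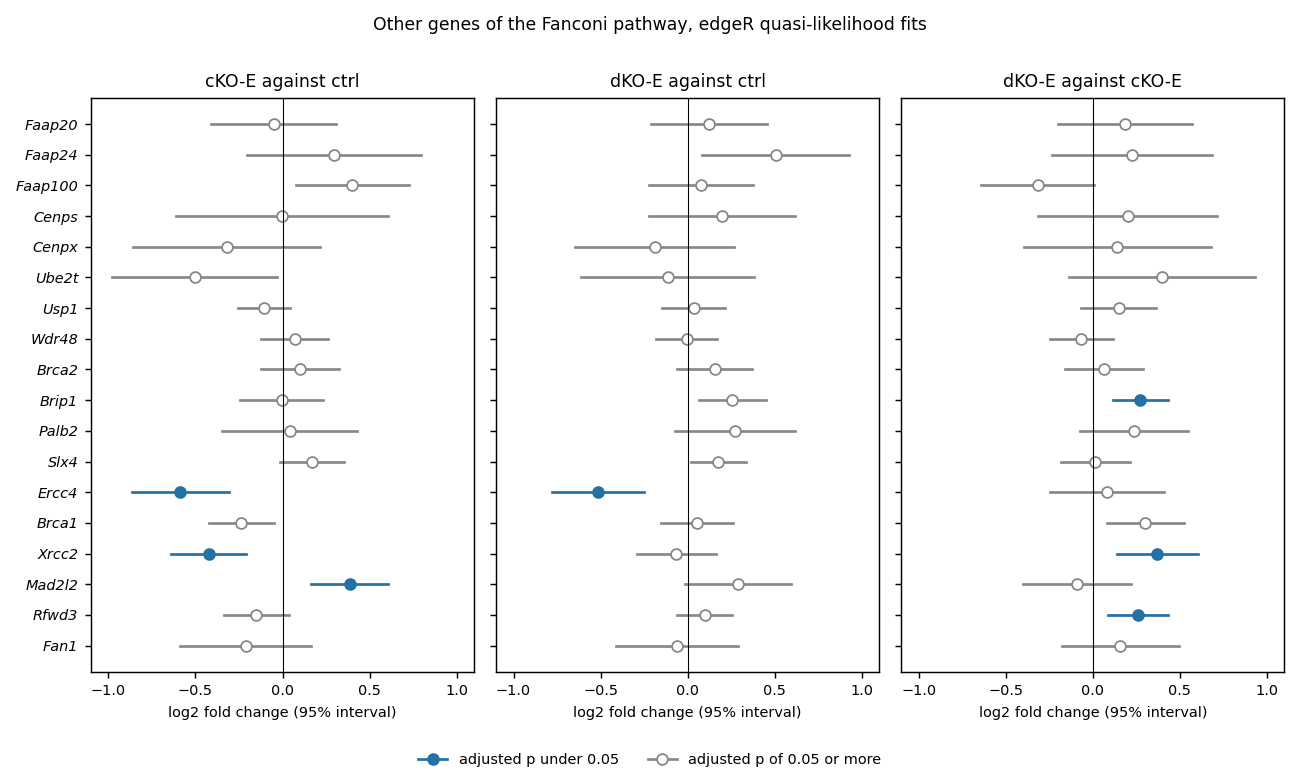
Log2 fold changes with 95% intervals for other genes of the Fanconi pathway in the 3 comparisons, with filled blue points for an adjusted p under 0.05. *Ercc4* is marked on the low side in both mutants, and *Brip1*, *Xrcc2* and *Rfwd3* on the high side in dKO-E against cKO-E.

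Genes of cycling cells also differed between genotypes. Of 17 cycling genes tested, all 17 had a negative log2 fold change in cKO-E against ctrl (median -0.24), beside 46.6% of all genes. *Mki67*, *Mcm2* and *Mcm6* were lower there at an FDR of 0.05, where 9.88% of all genes were. All 17 had a positive one in dKO-E against cKO-E (median 0.22), beside 6352 of 11746 genes. *Mki67*, *Mcm5*, *Cdk1* and *Rrm2* were higher there at an FDR of 0.05, where 5.59% of all genes were. In dKO-E against ctrl, 10 were positive and 7 negative (median 0.02). There *Mcm2* was lower (-0.71, adjusted p = 0.000537) and *Mcm5* higher (0.38, adjusted p = 0.0167). The summed level of the cycling genes was 2068 to 2763 CPM in ctrl, 1694 to 2244 in cKO-E and 1979 to 2802 in dKO-E. The summed level of the 10 Fanconi anemia genes was 247.2 to 352.5 CPM in ctrl, 247.2 to 313.4 in cKO-E and 304.0 to 351.4 in dKO-E. As these are bulk samples, fewer cells of a type and less RNA per cell cannot be told apart, and the part of cycling cells in the members' differences was not tested.

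**Figure D5:**
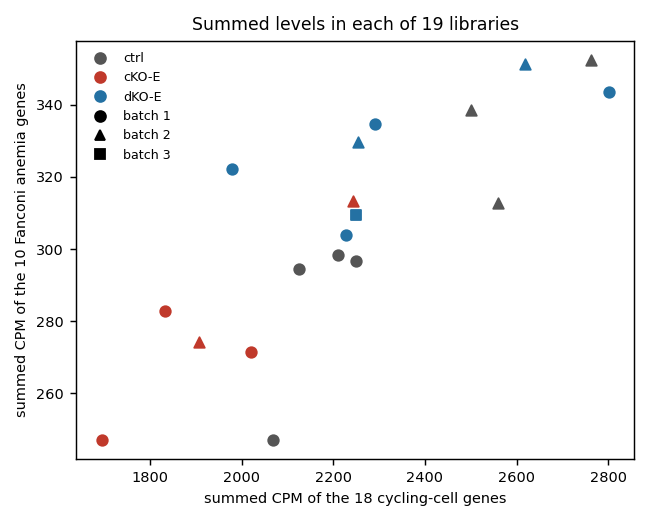
Summed CPM of the 10 Fanconi anemia genes against summed CPM of the 18 listed cycling-cell genes in each of 19 libraries, colored by genotype with point shape for batch. Libraries of cKO-E span 1694 to 2244 CPM on the cycling axis, and ctrl libraries of batch 2 lie above those of batch 1 on both axes.

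Other markers of the dissected tissue also differed with genotype. The 4 cortical identity genes summed to 467.5 to 581.7 CPM in ctrl, 307.9 to 425.4 in cKO-E and 408.7 to 628.1 in dKO-E. The 8 microglial genes summed to 3.62 to 15.5 CPM in ctrl, 21.6 to 27.2 in cKO-E and 5.02 to 7.87 in dKO-E, and the 5 interneuron genes to 9.14 to 79.2, 61.1 to 115.2 and 26.6 to 67.4. None of these markers was at 0 in every library. Excitatory neuron genes, 7 listed with *Tubb3* at 0, summed to 1362 to 2340 CPM in ctrl, 1758 to 2297 in cKO-E and 1152 to 1831 in dKO-E. In dKO-E against cKO-E, where *Fanca* and *Fancl* were called, all 6 neuron genes tested had a negative log2 fold change (median -0.41). *Stmn2* (-0.71, adjusted p = 7.26e-05), *Dcx* (-0.54, adjusted p = 0.00139) and *Tbr1* (-0.48, adjusted p = 0.00131) were lower, where 9.42% of all genes were at an FDR of 0.05. In dKO-E against ctrl, where *Fancl* was called, all 6 were negative too (median -0.26). There *Bcl11b* (-0.42, adjusted p = 0.037) and the cortical identity gene *Emx2* (-0.45, adjusted p = 0.0333) were lower, where 10% of all genes were. Progenitor genes, 7 listed with *Sox2* at 0, summed to 1097 to 1248 CPM in ctrl, 945.5 to 1216 in cKO-E and 1016 to 1174 in dKO-E. In cKO-E against ctrl, *Pax6*, *Nes* and *Eomes* were lower and *Fabp7* was higher at an FDR of 0.05, beside 9.88% and 7.31% of all genes. In dKO-E against ctrl, *Vim* was lower (-0.23, adjusted p = 0.0375). Between the mutants *Nes* was higher and *Fabp7* lower in dKO-E, beside 5.59% and 9.42% of all genes. No endothelial or blood gene that was tested passed in any comparison. Of 6 endothelial genes, 5 were tested in each comparison. Of 5 blood genes, only 1 was tested in each mutant against ctrl and 2 between the mutants. All cKO-E sums thus lay below all ctrl sums for cortical identity and above them for microglia, while interneuron sums overlapped, and the part of these in the Fanconi differences was not tested.

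Over the 19 libraries, the mean centred log2 CPM of the 10 members was most like that of *Mtbp* (Pearson r = 0.904), *Orc1* (0.881), *Rad18* (0.879), *Hnrnpl* (0.877) and *Kif7* (0.871), among 7380 genes with a mean of at least 20 CPM. *Orc1* encodes a subunit of the origin recognition complex and *Rad18* a ubiquitin ligase of lesion bypass. The members' mean profile had r = 0.687 with the mean log2 CPM of the listed cycling genes and r = -0.077 with the logarithm of depth. Members resembled one another unevenly, from r = 0.785 for *Fanca* with *Fancd2* and 0.707 for *Fancg* with *Fancl* down to -0.532 for *Fancg* with *Fanci*. These correlations are descriptions, as the points share genotype, litter and batch.

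Of the members, 7 share exon bases with a counted gene on the opposite strand, and whether strand was used in counting is not given in the sources used here. *Fancl* shares 462 bases with *Vrk2*, which was at -0.08 in dKO-E against ctrl (adjusted p = 0.522) and at 0.03 between the mutants (adjusted p = 0.969). *Fanci* shares 921 bases with *Polg*, which was higher in dKO-E in the fit of both mutants (0.29, adjusted p = 0.0381). *Fancf* shares 253 bases with *Gas2*, at 57.7 to 75.5 CPM on average across genotypes against 2.92 to 3.51 for *Fancf*, and *Gas2* was lower in cKO-E than in ctrl (-0.32, adjusted p = 0.0188) and higher in dKO-E relative to cKO-E (0.35, adjusted p = 0.041). *Fanca* shares 920 bases with *Zfp276*, which had no counts in any library, and *Fancd2* and *Fancm* share bases with genes of at most 0.181 CPM on average (*Fancd2os*, *Gm47870* and *Gm47869*). *Fancc* shares 1373 bases with *Gm16133*, at 0.425 to 0.629 CPM, and 185 with *2010111I01Rik*, which was higher in cKO-E than in ctrl (0.22, adjusted p = 0.0161). *Sox2*, *Tubb3* and *Cdt1*, genes in wide use in embryonic cortex, were also listed at 0 in all 19 libraries, so a 0 here, that of *Zfp276* included, does not show a gene to be silent. The part of these shared bases in the members' counts was not tested.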

How the data were processed

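Cortical RNA was depleted of ribosomal RNA and made into Click-seq libraries with unique molecular identifiers (UMIs). The counts the authors deposited are whole reads per gene, not normalized, made with cutadapt 1.13, STAR 2.5.2a on mm10, UMI-tools 0.5.3 and HTSeq 0.6.1p1 in intersection-nonempty mode. Versions are those in the submitters' processing notes. Rows naming no gene held 23.3 to 31.9% of each file and were left out. No 2 libraries held identical counts.

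Symbols and exon lengths came from GENCODE M21, in which 51719 of 51912 identifiers were found, and promoter windows from RefSeq (GRCm38.p6). Each pair of genotypes was fitted alone with edgeR 4.0.16 in R 4.3.3 (filterByExpr at a minimum count of 10, TMM factors, quasi-likelihood test, no covariates), with Benjamini-Hochberg adjustment across every gene in the fit. The study used edgeR's likelihood ratio test, an alternative here. The FDR was 0.001 against ctrl, as in the study, and 0.05 between the mutants, with 0.05 also read against ctrl. The SE is the size of the log2 fold change over the square root of the F statistic. In some fits the test's p was larger than this F alone gives, so the SE and interval there may be too narrow. *Fancl* in cKO-E against ctrl and *Fance* between the mutants were among these. CPM used TMM factors over all 19 libraries, and log2 CPM a prior count of 2. DESeq2 1.42.0 and other settings served as alternatives. The fits were also run on simulated counts, drawn independently for each library without litter or batch effects. The outcome of that run is not reported here, and it could not show how litter or batch bears on the tests. Plots used matplotlib 3.10.9.

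Named are all 10 members in every comparison, pathway genes past an FDR of 0.05, *Ino80* and *Trp53*, the 5 genes most correlated with the members' profile, and genes overlapping a member. Any other gene was named after its values were seen. The pathway counts include genes whose own values are not reported here. The members and lists were chosen with earlier results of these data known. Replicates are embryos, and 3 counts were taken as the floor, for counting error only. Embryo letters were shared between genotypes without marking a shared litter or animal, so they were not used for pairing.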

Additional observations from a re-analysis of the deposited data

Results flagged for a closer look

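In 3 of the 30 sets formed by a member and a genotype, 1 library lay farther from the others than Dixon's 95% limit, where chance gives about 1 set in 20. *Fanci* was at 64.2 CPM in cKO-E library D, with the next highest cKO-E value at 40.8. *Fancg* was at 3.71 CPM in the same library, from 3 counts, with the next lowest at 7.91. *Fancf* was at 1.96 CPM in ctrl library F, from 3 counts, with the next lowest at 2.84. Library cKO-E D was the shallowest of the series, and the part of depth in these values was not tested.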

How the results depend on the processing

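Between the mutants, *Fanca* and *Fancl* were the 2 members called, and 2 to 3 members were called without each library in turn, against 0 within batch 2 and 0 at an FDR of 0.001. The pathway count of 3 became 6 with total counts alone and 6 with sex as a covariate, 1 within batch 1, 0 within batch 2, 1 without the shallow libraries cKO-E D and dKO-E G (an alternative chosen after seeing the data) and 0 at an FDR of 0.001, and ran from 0 (without cKO-E replicate C) to 4 without each library in turn. It was 1 without cKO-E replicate A, B or D or dKO-E replicate B. Against ctrl at an FDR of 0.001, the likelihood ratio test gave 1 pathway gene in cKO-E and 1 member in dKO-E, and DESeq2 1 member in dKO-E, in place of 0. At an FDR of 0.05 the counts were 1 member and 3 pathway genes in cKO-E and 1 and 1 in dKO-E. At that FDR, leaving out each library gave 0 to 3 members in cKO-E and 1 to 2 in dKO-E, with 3 without ctrl replicate B, 0 without ctrl replicate C or D or cKO-E replicate B or C, and 2 in dKO-E without ctrl replicate H. Batch as a covariate gave 3 members in cKO-E.

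With the replicate block (the letter in the label), 0 members were called in cKO-E at 0.05, 1 in dKO-E and 2 between the mutants. Deviations of same-lettered libraries from their genotype means correlated from -0.60 to 0.38, so the letters gave no pairing. Of 735 member values under alternatives, none reversed a direction with an unadjusted p under 0.05 in either fit, and 40 changed sign without one. Litter could not be fitted as a covariate between the mutants, since they share no litter. Low counts limited the tests of *Fancf*, which the filter removed from both comparisons with ctrl.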
